A study of Mus musculus with 15 samples.

Results

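Mast cells and basophils are granulocytes that bind IgE and release histamine, proteases and cytokines from granules. The 10 genes described here encode proteins that mark these cells, namely Cpa3, Ms4a2, Fcer1a, Prss34, Mcpt8, Tpsb2, Gzmb, Hdc, Il1rl1 and Cma1. They were chosen by name and found by matching the Ensembl identifiers of the count table to gene symbols, which gave all 10 of 45232 gene identifiers. All 10 passed the filter on low counts, as did 17834 genes in all.

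The libraries were made from CD45.2+ LSK cells of bone marrow (lineage-negative, Sca-1+, c-Kit+), a fraction that holds stem and early progenitor cells, on a C57BL/6 background. Mutant cells carried conditional Idh2 R140Q and Jak2 V617F alleles, switched on with Mx1-Cre, an interferon-inducible recombinase that acts well beyond blood cells, by injecting polyI:polyC. They were transplanted in competition with CD45.1 WT cells into irradiated CD45.1 hosts, so host and competitor cells lay outside the CD45.2 gate. The 4 mutant groups received vehicle, AG221 (an inhibitor of mutant IDH2, 40 mg/kg in the labels), ruxolitinib (Rux, an inhibitor of JAK1 and JAK2 kinases, 60 mg/kg) or both drugs (combo), by gavage for 21 to 28 days. The study used mice of both sexes and gives their age as a range over its experiments, and the age behind each library is not given in the sources used here. The fifth group was WT, and its handling before the sort (transplant, polyI:polyC, vehicle) is not given in the sources used here. Each group had 3 libraries, which may each be a single mouse or a pool, so p-values measure the spread between these libraries.

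Mast cells and basophils descend from stem cells through progenitors shared with other myeloid lineages, and the transcription factors GATA1, GATA2 and MITF act along that path. Mast cells depend on the receptor KIT and mature in tissues, while basophils mature in the marrow under IL-3. The high-affinity IgE receptor is built from an alpha chain (Fcer1a) that binds IgE, a beta chain (Ms4a2) that amplifies the signal and a gamma chain (Fcer1g) that many other receptors share.

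Total counts ran from 18836625 to 32174287 per library, so a gene with 3 counts in a library stood between 0.0957 and 0.157 CPM, counts scaled to the normalized library total. Kit, 1 of the sort markers, lay between 740 and 1552 CPM in all 15 libraries. Ly6a, which encodes the other sort marker Sca-1, was at 13.1 CPM in vehicle A4 and between 42.9 and 166 CPM in the other libraries. Vehicle A4 also had the lowest Procr, Hlf and Mecom, markers of stem cells. Vehicle A3 had Prg2 at 408 CPM, a granule protein of eosinophils, against at most 56.6 CPM elsewhere. The 3 WT libraries carried Xist at 455 to 511 CPM and Ddx3y at no more than 0.101 CPM, whereas Ddx3y lay between 124 and 206 CPM in every mutant library, so sex and genotype cannot be told apart. Library names begin with A for vehicle, AG221 and Rux and with B for combo and WT, and what the letters stand for is not given. Whatever the letters mark cannot be told apart from vehicle against WT or from combo against vehicle, AG221 or Rux. The same holds for a departure of combo from the sum of both single-drug changes. Rux and AG221 against vehicle and combo against WT lie within 1 letter.

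The 5′ flanks of the genes were read from RefSeq (GRCm38.p6), which held 9 of the 10, with Tpsb2 missing. The letters AGATAA or TGATAA, a form of the site that GATA factors recognize, were sought on both strands in the 250 bases before the start. They stood in 5 of the 9 flanks (Cpa3, Ms4a2, Fcer1a, Prss34 and Il1rl1) and in 16.6% of 32851 promoters of that length. The flanks of Cpa3 (chr3:20242182-20242431, minus strand), Fcer1a (chr1:173227230-173227479, minus), Ms4a2 (chr19:11623720-11623969, minus) and Il1rl1 (chr1:40439379-40439628, plus) are shown because pairs of these 4 genes had r of 0.65 to 0.91 for deviations within groups. The lowest, Fcer1a with Il1rl1, was 0.51 without vehicle A4 and 0.36 without vehicle A4 and A3. Il1rl1 has a further start upstream in RefSeq, whose flank (chr1:40429320-40429569) held 2 matches, and the start nearest a principal transcript of GENCODE was used. Capitals mark these letters, which read TTATCT or TTATCA on the opposite strand.
Cpa3: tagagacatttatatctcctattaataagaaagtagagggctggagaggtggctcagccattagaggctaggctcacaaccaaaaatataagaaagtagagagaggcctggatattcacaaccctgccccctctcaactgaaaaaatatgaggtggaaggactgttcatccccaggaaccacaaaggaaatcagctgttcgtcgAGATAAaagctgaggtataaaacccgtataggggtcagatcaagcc
Fcer1a: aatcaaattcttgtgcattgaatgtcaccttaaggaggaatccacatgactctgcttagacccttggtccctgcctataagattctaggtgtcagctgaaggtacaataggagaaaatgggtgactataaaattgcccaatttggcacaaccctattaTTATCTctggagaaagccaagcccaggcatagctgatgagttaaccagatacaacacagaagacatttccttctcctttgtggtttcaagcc
Ms4a2: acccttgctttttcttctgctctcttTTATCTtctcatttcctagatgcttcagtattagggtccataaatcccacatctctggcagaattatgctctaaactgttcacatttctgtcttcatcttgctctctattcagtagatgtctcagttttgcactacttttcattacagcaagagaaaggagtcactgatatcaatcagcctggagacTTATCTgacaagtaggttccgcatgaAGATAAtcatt
Il1rl1: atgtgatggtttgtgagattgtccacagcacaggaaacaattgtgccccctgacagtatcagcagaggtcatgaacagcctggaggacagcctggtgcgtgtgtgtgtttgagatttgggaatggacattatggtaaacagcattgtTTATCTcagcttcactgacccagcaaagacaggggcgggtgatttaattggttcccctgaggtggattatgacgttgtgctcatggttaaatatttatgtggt
Ms4a2 held 3 matches and the other 3 flanks 1 each. Prss34, whose levels did not follow these genes, held a match as well. Hdc held none, with r = 0.78 for Fcer1a and 0.77 for Ms4a2, and 0.37 for Cpa3 and 0.42 for Il1rl1. The RUNX letters TGTGGT were in 5 of the 9 flanks (14.1% of all promoters) and the E-box letters CACGTG or CATGTG, read by MITF, in 2 (17.6%). The STAT letters TTCNNNGAA were in none (7.02%) and the AP-1 letters TGANTCA in 1 (6.75%). These matches describe letters in a window and were not tested as binding sites.

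All 10 genes are protein-coding and none shares exon sequence with an overlapping gene in GENCODE mouse release 21. Mcpt8, Gzmb and Cma1 lie on chromosome 14, in the cluster of chymase and granzyme genes (Cma1 at chr14:55941451-55944675, Mcpt8 at chr14:56082166-56085273 and Gzmb at chr14:56258838-56262260, all on the minus strand). Prss34 (chr17:25298394-25300165) and Tpsb2 (chr17:25366305-25369098) are tryptase genes close together on the plus strand of chromosome 17. Of the stretches of 50 bases in Cma1 transcripts, 5.38% also occur in Gm48934, and 2.10% of those in Ms4a2 occur in Ms4a4b, so a small part of their reads could be split. For Hdc and Il1rl1 this share was below 0.19%, and for the other 6 genes it was 0.

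Levels of different genes were compared as CPM per kilobase of exon (mean ± SD, n = 3). In WT cells the highest were Cpa3 (28.2 ± 6.99), Prss34 (26.8 ± 12.7) and Mcpt8 (19.1 ± 10.7), a carboxypeptidase of mast cell granules and a pair of basophil proteases. Fcer1a stood at 4.10 ± 0.805 and Tpsb2 at 0.502 ± 0.671 there. In vehicle-treated mutant cells Cpa3 again led (216 ± 70.7) and Fcer1a came next (93.7 ± 65.1), though its spread took in the means of Prss34, Mcpt8 and Ms4a2. Fcer1a made up 3.85% to 5.43% of the summed per-kilobase level of the 10 genes in WT libraries and 9.22% to 24.1% in the mutant libraries. Prss34 made up 25.9% to 31.8% in WT libraries, 26.9% in vehicle A3 and at most 15.2% in the other mutant libraries.

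**Figure D1:**
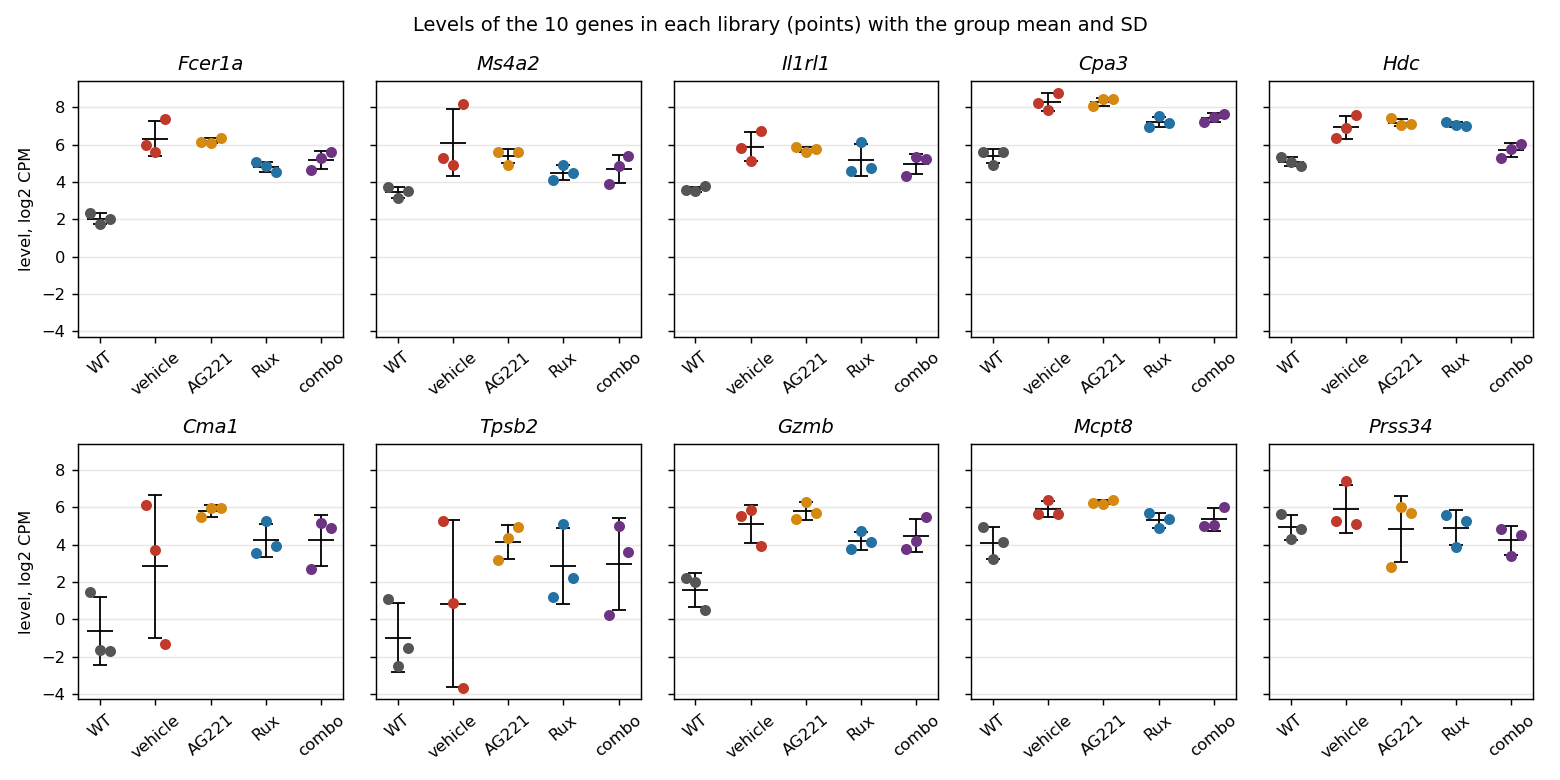
Each panel plots 1 gene, with log2 CPM (prior count of 2) on the vertical axis and the 5 groups on the horizontal axis. Points are libraries, and bars give the group mean and SD (n = 3). Fcer1a and Cpa3 in Rux and combo libraries lie between WT and vehicle, whereas Cma1 and Tpsb2 spread over several log2 units within vehicle.

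In vehicle-treated mutant cells, 8 of the 10 genes were higher than in WT cells and none was lower, in the quasi-likelihood test of edgeR at a Benjamini-Hochberg adjusted p under 0.05, adjusted over all genes tested. Of all genes tested, 33.3% were called in this comparison, 15.4% as higher. The median log2 fold change of the 10 genes was 3.20, beside a median of -0.09 over all genes. In 7 of the 10, every vehicle library was above every WT library, which held for 25.6% of all genes. In bulk samples, more cells of a type and more RNA per cell cannot be told apart.

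Fcer1a, the IgE-binding chain, was at 4.93, 3.34 and 3.99 CPM in WT libraries (B28, B30 and B31) and at 63.1, 49.3 and 168 CPM in vehicle libraries (A1, A3 and A4). The groups did not overlap, and A4 was 3.41 times A3. Fcer1a rose 22.9-fold (log2 4.51 ± 0.44 SE, adjusted p = 4.42e-05), with a log2 of 3.80 without A4. Ms4a2, the beta chain, was at 13.03, 8.66 and 11.3 CPM in WT and at 38.4, 29.6 and 294 CPM in vehicle. The groups were again separate, with A4 9.92 times A3. Ms4a2 rose by a log2 of 3.45 ± 0.73 (adjusted p = 0.0064), a value that was 1.65 without A4.

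Il1rl1 encodes ST2, the receptor chain for IL-33, which activates mast cells and basophils. It lay between 11.46 and 13.6 CPM in WT libraries and at 57.4, 35.4 and 105 CPM in vehicle libraries (log2 2.43 ± 0.45, adjusted p = 0.00385). Of 8 markers of group 2 innate lymphoid cells, which also use ST2, Il5, Areg and Klrg1 did not exceed 0.342 CPM in any library. The others reached 24.3 CPM for Rora, 24.1 for Gata3, 19.05 for Il17rb, 15.03 for Il7r and 6.37 for Icos. Of the 5 that were tested, none rose and Rora fell, and their part in the Il1rl1 result was not tested.

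Cpa3 was at 49.3, 30.5 and 48.4 CPM in WT and at 306, 233 and 444 CPM in vehicle, 7.66-fold higher (log2 2.94 ± 0.27, adjusted p = 2.53e-05). Hdc, which encodes histidine decarboxylase, the enzyme that makes histamine, was at 40.1, 33.0 and 28.7 CPM in WT and at 80.8, 119 and 190.0 CPM in vehicle. It rose 3.83-fold (log2 1.94 ± 0.27, adjusted p = 0.000808). Neither gene's groups overlapped. Early granulocyte progenitors also express Hdc. The summed level of 8 neutrophil granule markers was 3267 to 3628 CPM in WT and 7287 to 12080 CPM in vehicle. Most of it was Mpo, at 2164 to 2388 CPM in WT and 5191 to 7870 CPM in vehicle. Mpo was higher in every library whose name begins with A than in any with B. Prtn3, Elane and Mpo were called higher, whereas S100a8, S100a9, Ltf, Ngp and Camp were not called. S100a8 was at its lowest of all libraries (14.5 CPM) in vehicle A4, where Hdc was highest. Of the markers called, Elane (1125 CPM) was at its lowest vehicle level in A4. Mpo (6948 CPM) and Prtn3 (820 CPM) there lay between A1 and A3. The part of these markers in the Hdc result was not tested.

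Gzmb, the serine protease granzyme B, was at 4.57, 3.91 and 1.34 CPM in WT and at 46.5, 57.4 and 15.2 CPM in vehicle (log2 3.60 ± 0.61, adjusted p = 0.00246). Cytotoxic lymphocytes also express it. Of 8 of their markers, Gzma, Prf1 and Ncr1 did not exceed 0.887 CPM in any library, Cd3e and Cd3g reached 1.24 CPM, Klrd1 2.56 CPM and Klrb1c 4.26 CPM. Of 6 tested markers of those cells, Nkg7 alone rose. Its level was 150 to 216 CPM in WT and 405 to 454 CPM in vehicle. Nkg7 was higher in every library whose name begins with A than in any with B. The part of these markers in the Gzmb result was not tested.

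Mcpt8, a basophil granule protease, was at 30.4, 9.27 and 17.4 CPM in WT and at 50.9, 84.3 and 49.7 CPM in vehicle. It rose 3.24-fold (log2 1.70 ± 0.40, adjusted p = 0.00992). Prss34, also a basophil protease, was at 49.8, 19.5 and 28.7 CPM in WT and at 37.9, 168 and 34.0 CPM in vehicle. Only A3 lay above the WT range, and the log2 fold change of 1.29 ± 0.77 was not significant (adjusted p = 0.203) and was 0.16 without A3. In A3 the eosinophil markers were also high, with a summed level of 574 CPM against 90.6 and 98.8 CPM in the other vehicle libraries, and their part in the Prss34 value was not tested.

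Cma1 encodes chymase and Tpsb2 a tryptase, granule proteases of mature connective tissue mast cells. Cma1 was at 2.72, 0.236 and 0.235 CPM in WT and at 70.1, 13.05 and 0.316 CPM in vehicle, from 8 counts in A4 to 1864 in A1. The groups overlapped, yet Cma1 passed the threshold (log2 4.72 ± 1.38, adjusted p = 0.0216). Without A1 the value was 2.69 and was not called (adjusted p = 0.115), and the call was also lost without WT B30 or B31 (adjusted p = 0.0906 and 0.0597). It was 5.32 without A4 and 6.87 without WT B28. Tpsb2 was at 2.03, 0.101 and 0.268 CPM in WT and at 39.2, 1.79 and 0 CPM in vehicle, where the count of 0 in A4 allows up to 0.118 CPM. It was not called (adjusted p = 0.0922).

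AG221 alone changed none of the 10 genes at the threshold, with 0.987% of all genes called. That share rests on single libraries, since the 176 genes called became 0 without vehicle A1 or A4 or AG221 A8 or A10, 27 without vehicle A3 and 4672 without AG221 A9. At an unadjusted p under 0.05 in edgeR there was 1 member, Ms4a2, and the share of all genes at that cutoff is not given here. DESeq2 called 0 of the 10, beside 2247 of the 37904 genes with a count. The 95% interval of the log2 fold change was -0.56 to 0.50 for Cpa3, -0.39 to 0.74 for Hdc and -0.50 to 1.17 for Mcpt8. Those for Cma1 and Tpsb2 spanned more than 4 log2 units.

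The AG221 libraries were also close to each other for most members. Fcer1a was at 72.0, 69.3 and 83.7 CPM in A8, A9 and A10, Cpa3 at 268, 350 and 345 CPM, and Mcpt8 at 75.6, 73.0 and 84.3 CPM. These values lay within or at the edge of the vehicle range. Cma1 was at 44.1, 63.5 and 63.6 CPM, high in all 3 libraries. Prss34 was spread more widely, at 6.97 CPM in A8 and at 63.9 and 52.2 CPM in A9 and A10, as was Tpsb2, at 8.85, 20.6 and 30.6 CPM.

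Rux also left all 10 genes above the adjusted threshold, in a comparison with 0.0168% of all genes called. DESeq2 called 2 (Cpa3 and Fcer1a), beside 50 of the 37904 genes with a count. In edgeR, 3 members had an unadjusted p under 0.05 (Cpa3, Fcer1a and Ms4a2). The share of all genes at that unadjusted cutoff is not given here, so this count has no background beside it. Cpa3 was at 124, 184 and 145 CPM in A14, A16 and A17, below every vehicle library (log2 -1.11 ± 0.25, adjusted p = 0.376). Fcer1a was at 33.7, 29.0 and 23.4 CPM, likewise below every vehicle library (log2 -1.71 ± 0.39, adjusted p = 0.376, and -0.97 without vehicle A4). Groups that did not overlap and were lower made up 2 of the 10 genes and 4.50% of all genes.

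Under Rux, Hdc was at 148, 132 and 127 CPM, inside the vehicle range, with a log2 fold change of 0.06 and a 95% interval of -0.50 to 0.63. Il1rl1 was at 23.9, 71.7 and 27.2 CPM (log2 -0.69, and -1.37 without A16) and Gzmb at 13.3, 26.2 and 17.6 CPM, both overlapping vehicle. Mcpt8 was at 51.4, 29.4 and 41.8 CPM (log2 -0.59 ± 0.39).

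Combined treatment lowered 3 of the 10 genes against vehicle (Cpa3, Fcer1a and Hdc) and raised none, where 12.5% of all genes were called and 4.21% were called lower. The 10 genes had a median log2 fold change of -0.95, against 0.04 for all genes. Prss34 also lay below vehicle in every library, so that 4 of 10 did not overlap and were lower, against 15.2% of all genes. All treatment comparisons share the vehicle libraries.

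Cpa3 was at 147, 181 and 201 CPM in combo libraries B24, B25 and B26, 1.86-fold lower than vehicle (log2 -0.89 ± 0.25, adjusted p = 0.0314). Fcer1a was at 25.05, 39.0 and 49.2 CPM, 2.48-fold lower (log2 -1.31 ± 0.38, adjusted p = 0.0385). Each of these groups ended just below the lowest vehicle library, A3. Without vehicle A4 the log2 fold changes were -0.61 and -0.58 and neither was called (adjusted p = 0.144 and 0.218), which left 1 gene, Hdc. Both calls were also lost without combo B24 or B25, and that of Cpa3 without vehicle A1.

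Hdc was at 39.3, 55.1 and 65.1 CPM under combined treatment, 2.44-fold lower than vehicle (log2 -1.29 ± 0.27, adjusted p = 0.00746). It remained called whichever single library was left out (adjusted p 0.0076 to 0.0439). Hdc was the 1 member called lower than under both single drugs, by a log2 of 1.47 ± 0.27 against AG221 (adjusted p = 0.00316) and 1.35 ± 0.27 against Rux (adjusted p = 0.00536). Its combo value departed from the sum of both single-drug changes by a log2 of -1.53 ± 0.37 (adjusted p = 0.0373), 1 of 10 genes called where 8.42% of all genes were. That call was lost without vehicle A3, AG221 A8 or A10, any of the Rux libraries, or combo B24 or B25 (adjusted p 0.0527 to 0.1001), with values of -1.34 to -1.64. The genes called over the whole table, 1502 in that test, ran from 44 without combo B25 to 6087 without AG221 A9. All libraries whose names begin with A had Hdc between 80.8 and 190.0 CPM and all that begin with B had it between 28.7 and 65.1 CPM, so the letters cannot be told apart from these differences. The summed neutrophil markers were 3967 to 7032 CPM in combo, 15972 to 18776 in AG221 and 11492 to 18316 in Rux, and their part in the Hdc values was not tested.

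Ms4a2 (14.7, 28.8 and 41.4 CPM), Il1rl1 (20.2, 40.6 and 37.0 CPM) and Prss34 (28.2, 10.3 and 22.6 CPM) had log2 fold changes of -2.09 ± 0.69, -1.02 ± 0.43 and -1.98 ± 0.79 against vehicle. None of these passed the threshold (adjusted p = 0.0653, 0.147 and 0.123). DESeq2 called 5 members, adding Ms4a2 and Prss34, beside 2987 of the 37904 genes with a count (2226 of 17834 in edgeR). Without vehicle A4 the Ms4a2 value was -0.27, and without vehicle A3 the Prss34 value was -0.83. Mcpt8, Gzmb, Cma1 and Tpsb2 had adjusted p-values of 0.454 to 0.961, and the 95% interval for Mcpt8 was -1.35 to 0.33.

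**Figure D2:**
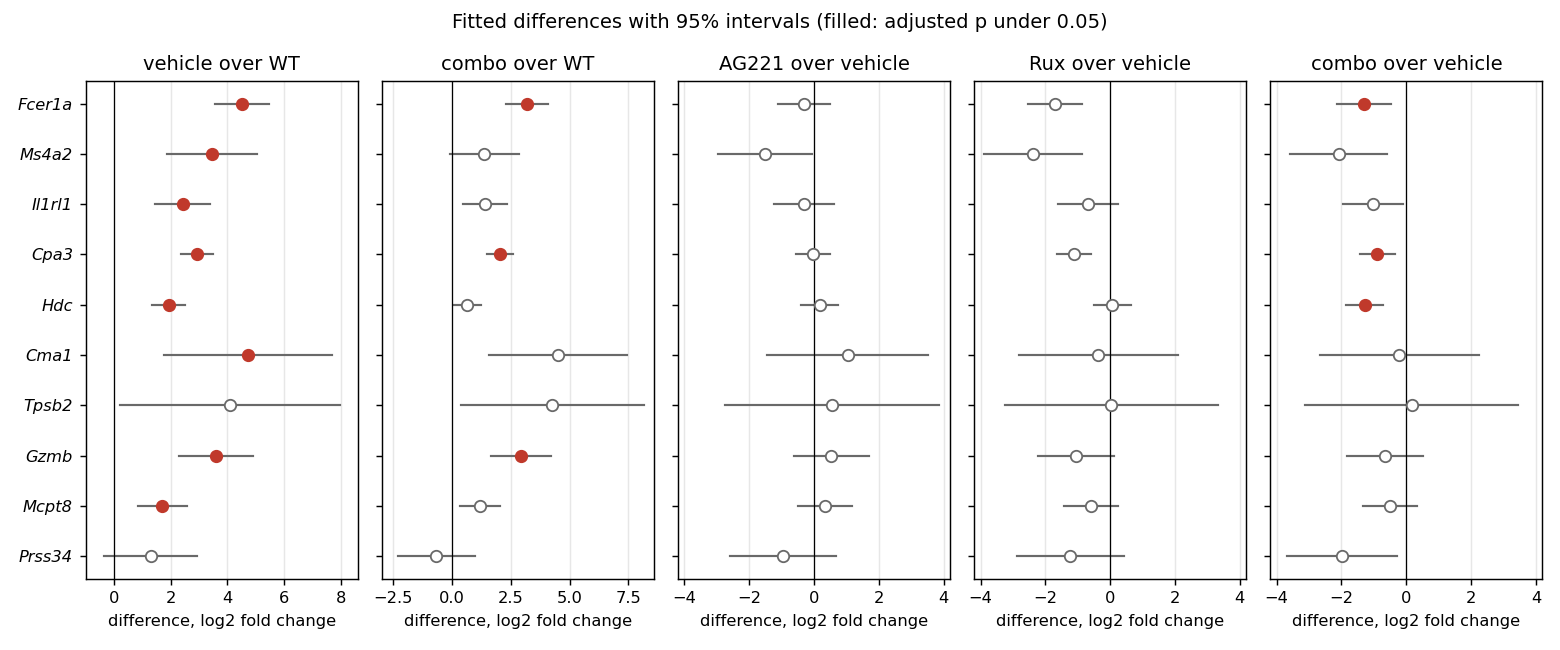
Each panel plots 1 comparison, with the fitted log2 fold change of each gene on the horizontal axis and its 95% interval as a line. Filled points have an adjusted p under 0.05 (8 genes in vehicle over WT, 3 in combo over WT and 3 in combo over vehicle), and axis ranges differ between comparisons with WT and with vehicle.

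Combined treatment was set against AG221 and Rux alone. Against AG221, Cpa3 (log2 -0.87 ± 0.25, adjusted p = 0.0181) and Hdc were lower, which is 2 of 10 where 33.2% of all genes were called. Fcer1a missed the threshold with groups that did not overlap (log2 -0.99 ± 0.38, adjusted p = 0.0592). Against Rux, Hdc was the 1 gene called, where 12.4% of all genes were. The intervals of combo over Rux were -0.31 to 0.75 for Cpa3 and -0.41 to 1.21 for Fcer1a.

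Some members stayed above WT under combined treatment. Cpa3 was 4.12-fold, Fcer1a 9.23-fold and Gzmb 7.73-fold higher in combo than in WT (adjusted p = 0.00127, 0.00159 and 0.0219), 3 of 10 where 3.25% of all genes were called. In 7 of the 10 genes every combo library was above every WT library, as in 22.3% of all genes. The calls of Cpa3 and Fcer1a stood without any single library, whereas that of Gzmb was lost in 5 of the 6 cases (adjusted p 0.0518 to 0.0724), with a log2 of 2.31 without combo B26 against 2.95 with all libraries. Hdc overlapped WT (log2 0.65 ± 0.27, adjusted p = 0.151), as did Prss34 (log2 -0.68 ± 0.76, adjusted p = 0.604). DESeq2 called 6 members in this comparison, beside 1800 of the 37904 genes with a count (579 of 17834 in edgeR).

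Taking the group means in order, all 10 genes had their highest mean in vehicle or AG221, and 9 had their lowest in WT. The exception was Prss34, with 20.4 ± 9.17 CPM in combo and 32.7 ± 15.5 CPM in WT, which did not differ beyond their spread. No member passed the test between vehicle and AG221, nor between combo and Rux apart from Hdc. For Cpa3, Fcer1a and Ms4a2 the order was vehicle, AG221, combo, Rux and WT. Without vehicle A4 the AG221 over vehicle values of these 3 genes turned positive (log2 0.25, 0.41 and 0.31), so that the place of vehicle before AG221 rests on that library.

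Within groups, the members varied in sets. Deviations of log2 CPM from the group mean were correlated over the 15 libraries as a description, without a test. Fcer1a and Ms4a2 had r = 0.91 (rho = 0.82), Ms4a2 and Il1rl1 r = 0.78 (rho = 0.84), and Cpa3 and Ms4a2 r = 0.75 (rho = 0.74). Without vehicle A4 these were 0.83, 0.73 and 0.68. Hdc had r = 0.78 with Fcer1a and 0.77 with Ms4a2 (0.64 and 0.62 without vehicle A4). Its r was 0.37 with Cpa3 and 0.42 with Il1rl1. Each pair shares the library, its depth and the group centering.

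Cma1 and Tpsb2 formed the tightest pair, with r = 0.95 (rho = 0.93), and r = 0.90 without the 2 libraries farthest from the median. Tpsb2 was highest in vehicle A1 (39.2 CPM), Rux A16 (35.1 CPM), combo B25 (32.6 CPM) and AG221 A10 (30.6 CPM), whereas its Rux neighbours A14 and A17 were at 2.21 and 4.51 CPM. In combo, Tpsb2 ran from 1.10 to 32.6 CPM, while the means of the 4 mutant groups lay between 13.7 and 19.998 CPM. Gzmb followed Cma1 with r = 0.72. Cma1 and Ms4a2 deviated in opposite directions (r = -0.50), a value that was -0.0012 without vehicle A4, the library with the most Ms4a2 and nearly no Cma1. Mcpt8 and Prss34 had r = 0.53, and Prss34 and Il1rl1 r = -0.65.

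**Figure D3:**
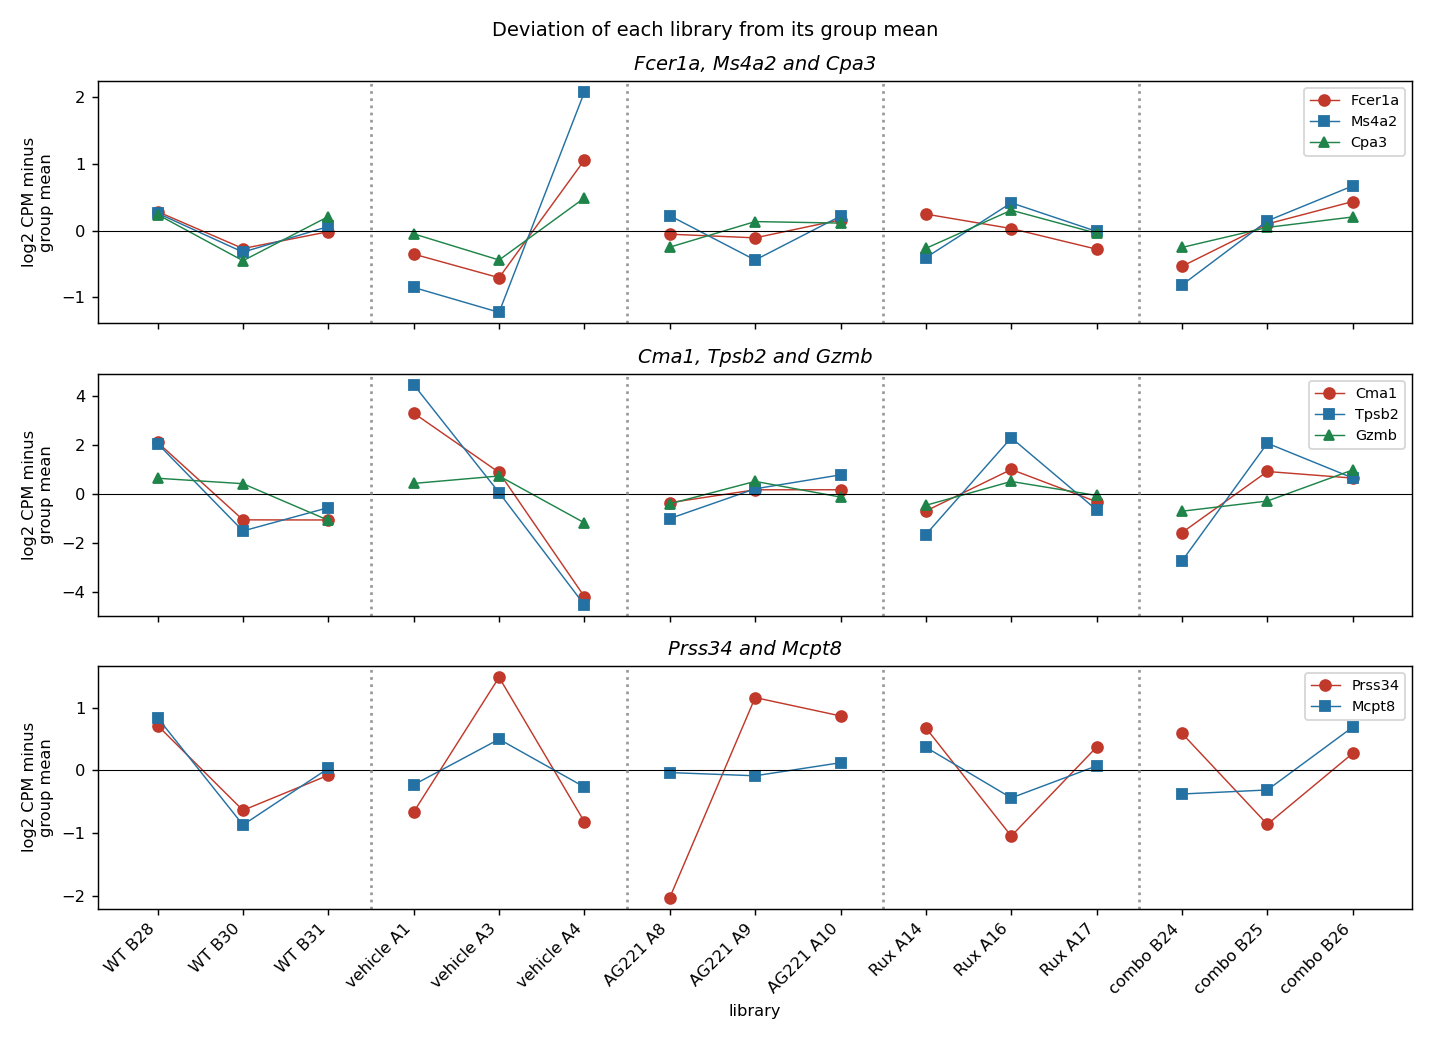
The vertical axis gives log2 CPM minus the mean of the library's group, and the horizontal axis lists the 15 libraries with dotted lines between groups. Fcer1a, Ms4a2 and Cpa3 peak in vehicle A4, where Cma1 and Tpsb2 are lowest, and Prss34 peaks in vehicle A3.

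Genes other than the members were ranked by likeness to each member over the 15 libraries (Pearson r of log2 CPM, a description without a test). The ranking did not cover all chromosomes. For Tpsb2 the genes most alike included further mast cell genes. These were Mrgprb2, a receptor of connective tissue mast cells (r = 0.89), and the tryptase gene Tpsg1 (r = 0.83), both at 5.04 CPM or less. Gzmb was most like Ccl2 (r = 0.97), a chemokine gene that was also first for Cma1 (r = 0.90). Fcer1a was most like Cdk6 (r = 0.96) and Ccr2 (r = 0.94), and Hdc most like Slc22a4 (r = 0.97), with Mpo the third (r = 0.95). Ms4a2 was most like Csrp3 (r = 0.91), Il1rl1 like Rmdn3 (r = 0.96), Cpa3 like Gtf2e2 (r = 0.96), Mcpt8 like Clec4e (r = 0.90) and Prss34 like Vasp (r = 0.81). These r hold differences between groups as well as within them. For the deviations within groups, r was 0.61 for Ccr2, 0.65 for Clec4e, 0.69 for Mpo, 0.74 for Cdk6 and 0.78 for Gtf2e2, and between 0.796 and 0.914 for the other pairs named. Pairs of members, left out of this ranking, could have a higher r of log2 CPM. It was 0.98 for Cpa3 and Fcer1a and 0.94 for Cma1 and Tpsb2.

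Genes that act beside the members were taken from 7 lists of 68 genes, of which 60 were tested. In vehicle over WT, 21 were higher and 5 lower, beside 15.4% and 17.9% of all genes. Combined treatment raised 6 and lowered 11 against vehicle (8.28% and 4.21% of all genes), and AG221 raised 1 and lowered 2 (0.471% and 0.516%). Rux changed 0 of them. Under Rux, 9 had an unadjusted p under 0.05 in edgeR, and the share of all genes at that cutoff is not given here. In combo, 3 were higher than in WT (1.63% of all genes). Calls named by the rule of at most 3 per list and comparison were followed with each library left out. Of these, 16 of 19 in vehicle over WT, 9 of 14 in combo over vehicle and 0 of 3 in AG221 over vehicle stood in every such fit. The calls of Enpp3 and Mitf in vehicle over WT, also given below, are not among these. Nor are those of Alox5 in combo over vehicle and of Gata1 in combo over WT. In some of the 60 genes, named below, libraries whose names begin with A did not overlap those with B. Of 9 other granule proteases 4 could be tested, and Ctsg (cathepsin G, shared with neutrophils) was called. It rose in vehicle (log2 1.69 ± 0.25, adjusted p = 0.00102) and passed the threshold under AG221 (log2 1.12 ± 0.24, adjusted p = 0.0489). The AG221 call was lost in 5 of 6 fits without a library, all but that without AG221 A9 (adjusted p up to 0.201), and with the compared groups alone. Mcpt4, the chymase of connective tissue mast cells, did not exceed 1.07 CPM.

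Of 11 genes of IgE receptor signaling, vehicle raised Btk, a tyrosine kinase (log2 0.53 ± 0.16, adjusted p = 0.023). Plcg1, a phospholipase, and Fyn, a Src kinase, fell (log2 -1.58 ± 0.30 and -1.26 ± 0.42). Those 2 rose under combined treatment (log2 2.12 ± 0.30 and 2.36 ± 0.44, adjusted p = 0.0015 and 0.00458). In IL-33 signaling, 5 of 6 genes were tested, and the adaptor Myd88 and the kinase Irak4 rose in vehicle by log2 values of 0.53 ± 0.12 and 0.61 ± 0.14. The kinase Irak1 fell (log2 -1.30 ± 0.40) and rose under combined treatment (log2 1.85 ± 0.41, adjusted p = 0.0102). In vehicle the calls of Btk, Fyn and Irak1 were lost without A1, A4 or WT B30, that of Fyn also without A3 and those of Fyn and Irak1 without WT B28. Under combined treatment Irak1 was not called without vehicle A1. The median log2 fold change in vehicle was 0.22 for the IgE list and 0.30 for the IL-33 list.

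Among receptors, 12 of 13 were tested, 4 rose and 1 (Enpp3) fell in vehicle. Csf2rb, the beta chain shared by the receptors for IL-3, IL-5 and GM-CSF, was at 56.8, 60.9 and 49.96 CPM in WT and at 168, 166 and 234 CPM in vehicle. The groups did not overlap (log2 1.76 ± 0.26, adjusted p = 0.000963). Csf2rb2, a close relative for IL-3, rose by a log2 of 2.33 ± 0.47 (adjusted p = 0.00534). Under combined treatment Csf2rb fell by 1.32 ± 0.25 and Csf2rb2 fell by 2.38 ± 0.47 on the log2 scale (adjusted p = 0.00522 and 0.0059), to 75.7 ± 23.1 and 6.20 ± 4.08 CPM. Without combo B26 the Csf2rb2 value was -3.03. Under Rux their means were 97.6 ± 25.6 and 8.45 ± 3.28 CPM, and under AG221 225 ± 49.2 and 32.8 ± 10.4 CPM. Cd200r3, a receptor on mast cells and basophils, rose in vehicle (log2 1.49 ± 0.39) at no more than 3.38 CPM.

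All 9 genes of mediator storage and synthesis were tested, and 5 rose in vehicle. Ptgs2 (cyclooxygenase-2) rose by a log2 of 5.61 ± 0.41, Alox5 (5-lipoxygenase, for leukotrienes) by 2.86 ± 0.33 and Srgn (serglycin, the proteoglycan that packs granule proteases) by 0.90 ± 0.11. Combined treatment lowered those 3 and raised Ndst2, a heparin-modifying enzyme (log2 1.53 ± 0.35). Ptgs2 was at 35.5 ± 14.02 CPM in vehicle and at 0.659 ± 0.297 CPM in combo. AG221 lowered Slc18a2, the vesicle transporter for histamine (log2 -0.88 ± 0.18, adjusted p = 0.0458), a call lost without vehicle A1, A3 or A4 or AG221 A8 or A10 (adjusted p up to 0.205), with the compared groups alone and with upper quartile scaling. Under combined treatment the calls of Srgn and Ndst2 were lost without vehicle A1 or combo B24 or B25, and that of Srgn also without vehicle A3.

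Of 8 cytokine genes 7 were tested, 5 rose in vehicle and 5 fell under combined treatment. Tnf was at 2.88 ± 0.564 CPM in WT, 36.2 ± 9.07 in vehicle, 44.1 ± 10.8 in AG221, 23.4 ± 3.64 in Rux and 2.94 ± 1.41 in combo. Ccl4 rose by a log2 of 2.28 ± 0.37 in vehicle and fell by 3.06 ± 0.38 under combined treatment. Il6 rose by 2.24 ± 0.32 and Lif fell under combined treatment by 2.44 ± 0.61. AG221 lowered Il6 (log2 -1.52 ± 0.32, adjusted p = 0.0458), a call lost in every fit without a library except that without AG221 A9 (adjusted p up to 0.176), with the compared groups alone and without the count filter. The call of Lif was lost without vehicle A1 or combo B24 or B25. Ccl4, Ccl3, Tnf, Ptgs2, Srgn and Bhlhe40 were higher in every library whose name begins with A than in any with B, as Hdc was, and Fyn, Plcg1, Irak1, Crlf2, Ndst2 and Lmo2 were lower in every one, so for these genes the letters cannot be told apart from the changes given here.

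All 12 transcription factors were tested, and 3 rose in vehicle. Gata1 was at 36.3 ± 3.76 CPM in WT and 134 ± 47.4 in vehicle (log2 1.89 ± 0.38, adjusted p = 0.00531). In combo Gata1 was at 138 ± 57.1 CPM, not called against vehicle but called higher than in WT. Bhlhe40 rose in vehicle (log2 2.33 ± 0.49) and fell under combined treatment (log2 -2.43 ± 0.49), with values of 1.54 and -1.62 without vehicle A3. Lmo2 fell in vehicle (log2 -1.54 ± 0.36) and rose under combined treatment (log2 1.72 ± 0.37). Tal1 was not called in vehicle and rose under combined treatment (log2 0.89 ± 0.24). That call of Tal1 was lost without vehicle A1 or A3 or combo B24 or B25.

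**Figure D4:**
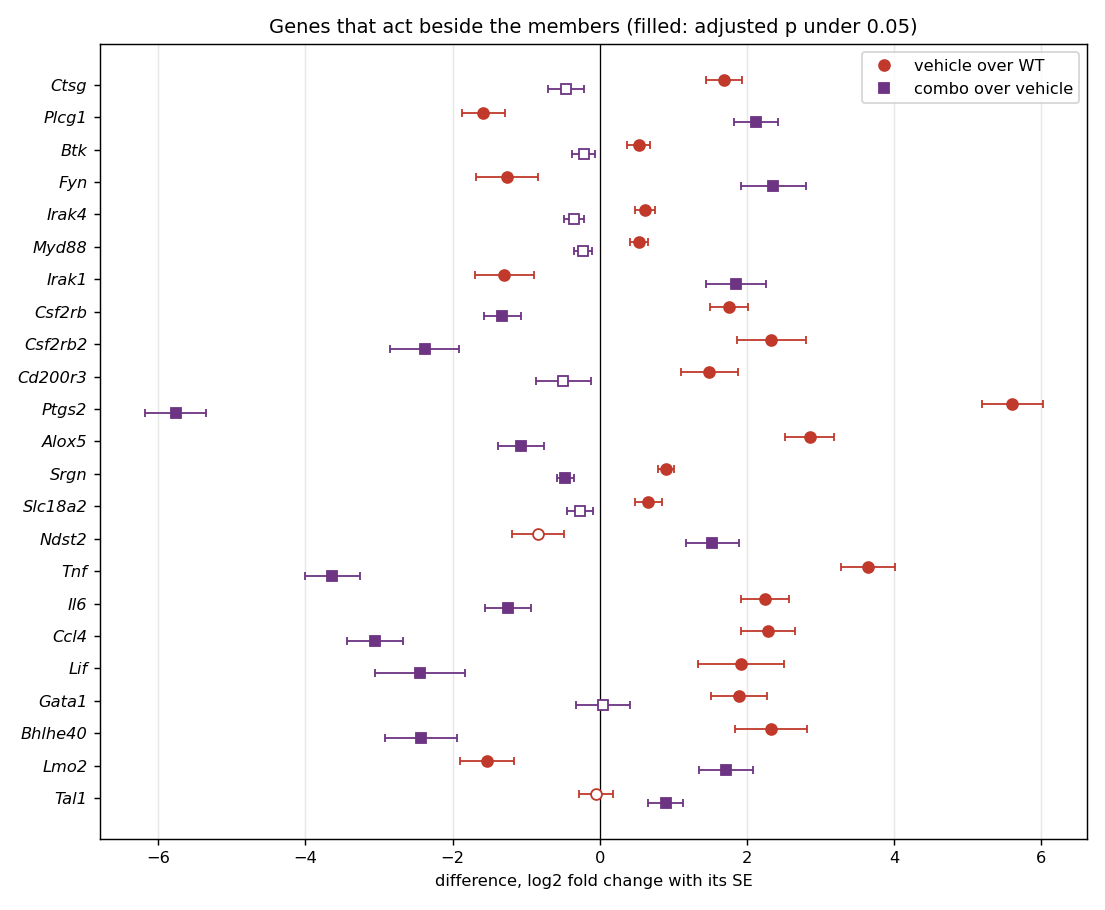
The horizontal axis gives the log2 fold change with its SE for genes of the 7 lists named in the text, as circles for vehicle over WT and squares for combo over vehicle. Filled symbols have an adjusted p under 0.05. Ptgs2 and Tnf lie farthest right in vehicle over WT and farthest left in combo over vehicle.

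Markers of other lineages were counted beside the share of all genes called in vehicle over WT, 15.4% higher and 17.9% lower. Of them, 3 of 5 megakaryocyte markers rose, with summed levels of 245 to 334 CPM in WT and 857 to 918 CPM in vehicle, and 1 of 6 erythroid and 2 of 6 monocyte and dendritic markers rose. Of 7 eosinophil markers Siglecf alone rose. Of 5 plasma cell markers 4 fell, from summed levels of 591 to 1271 CPM in WT to 63.2 to 156 CPM in vehicle. Of 10 LSK markers, Slamf1 rose and Procr, Flt3 and Hlf fell. The part of these shifts in the levels of the 10 genes was not tested.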

How the data were processed

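RNA of CD45.2+ LSK cells was amplified with SMARTer and sequenced. Per the labels, the authors aligned reads to mm10 (GRCm38) with STAR 2.5.1a and named DESeq2 1.6.3. They deposited raw counts per Ensembl gene. A deposited normalized table equals those counts times 1 constant per library and was not used. The strand setting of the counting and the Ensembl release are not given in the sources used here.

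Of 45232 gene identifiers, 44585 matched a symbol in GENCODE mouse release 21. Genes were filtered by filterByExpr, normalized by TMM and fitted over 15 libraries in 5 groups, without covariates, by edgeR 4.0.16 (quasi-likelihood, R 4.3.3). Benjamini-Hochberg adjustment covered 17834 genes, and the threshold was 0.05. Log2 CPM used a prior count of 2. Related genes named were those called in vehicle over WT or a treatment over vehicle, at most 3 per list and comparison with the smallest adjusted p. The rule also took the 3 genes most alike each member, leaving out the members and some chromosomes. Genes named beyond that rule (Il5, Areg, Prg2, Xist and other markers, Enpp3, Mitf, Siglecf, Mcpt4) were chosen after their values were seen. The members and lists were chosen with earlier results of these data known. Scripts were tested on simulated data. Alternatives were DESeq2 1.42.0, RLE and upper quartile scaling, a filter of 1 count in all, a minimum of 10 counts per library, the compared groups alone, each library left out and, added after seeing the data, GC content offsets and the same alternatives for the related genes. Floors and intervals from counts cover counting error only.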

Additional observations from a re-analysis of the deposited data

Results flagged for a closer look

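The effect of adding AG221 to Rux on Hdc differed from its effect against vehicle. AG221 alone changed Hdc by a log2 of 0.18 ± 0.26 and Rux alone by 0.06 ± 0.26, and combined treatment departed from their sum by -1.53 ± 0.37 (edgeR's quasi-likelihood test, adjusted p = 0.0373), with all 3 combo libraries below all 9 libraries of the other mutant groups. The call was lost when only the groups compared were fitted (adjusted p = 0.0629) and in 8 of the 12 fits that left out a library. Combo is the only group in this test whose library names begin with B. Hdc was lower in every B library, WT included, than in any A library, so the departure cannot be told apart from whatever the letters mark.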

How the results depend on the processing

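Per the study, mice for treatment were matched by hematocrit, leukocyte count, donor chimerism and body weight, and allotted at random within the matched sets. The library names carry no number that groups share, so the sets are not known here and no paired analysis was possible. The 8 members called in vehicle over WT became 7 to 9 under the alternatives, and no called member changed direction under any alternative. In combo over WT, 3 members called became 6 with DESeq2 and 5 without the count filter or with the compared groups alone. In combo over vehicle, 3 became 5 with DESeq2 or without the filter and ran from 1 to 4 with a library left out. In combo over AG221, 2 became 5 with upper quartile scaling and ran from 1 to 4 with a library left out. In Rux over vehicle, 0 became 2 with DESeq2 and 1 without the filter. The 1 call in the departure became 0 with the compared groups alone and ran from 0 to 1 with a library left out. Genes called over the whole table changed as well. With DESeq2 they were 1800 in combo over WT, 2987 in combo over vehicle and 50 in Rux over vehicle. Without the count filter they were 858, 2038 and 17. With the compared groups alone combo over WT had 1788, and with upper quartile scaling combo over AG221 had 7030. The cause was not tested.

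Values that were not called changed sign as follows. Against vehicle, Cpa3 under AG221 (log2 -0.03) was 0.0084 with DESeq2, 0.016 with RLE and 0.16 with upper quartile scaling, and Tpsb2 under combo (0.17) was -0.035 with upper quartile scaling and -0.034 with GC content offsets. With a library left out, the AG221 values ran from -0.23 to 0.25 for Cpa3, -1.98 to 0.31 for Ms4a2, -0.63 to 0.41 for Fcer1a, -1.44 to 0.18 for Prss34, -0.038 to 4.43 for Tpsb2, -0.079 to 0.55 for Hdc and -0.61 to 0.20 for Il1rl1. The Rux values ran from -1.996 to 3.91 for Tpsb2, -0.19 to 0.44 for Hdc and -1.03 to 1.68 for Cma1, and the combo values from -1.04 to 4.05 for Tpsb2 and -0.79 to 1.83 for Cma1.

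Over all genes, vehicle over WT had 2747 higher and 3190 lower calls, against 1306 and 3586 with upper quartile scaling and 4153 and 2770 with GC content offsets. With a library left out, the genes called ran from 1901 to 5907 in vehicle over WT (5937 with all 15), 0 to 9 in Rux over vehicle (3), 1006 to 1965 in combo over vehicle (2226), 88 to 415 in combo over WT (579), 3002 to 8140 in combo over AG221 (5917) and 1137 to 1899 in combo over Rux (2217). With at least 10 counts in every library, Cma1 and Tpsb2 were not tested. With 3 libraries a group and the spread of Cma1, Tpsb2 and Prss34, changes of several log2 units in these genes could not be resolved.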
